A study of Mus musculus with 8 samples.

Results

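PPARα is a nuclear receptor that senses fatty acids in hepatocytes, and the genes described here are the receptor gene Ppara and 7 of its known fasting and fat oxidation targets: Fgf21, Cpt1a, Acot1, Pdk4, Angptl4, Ehhadh and Vnn1. The members were chosen by symbol, and all 8 were found among the 46078 genes of the count table and passed the filter on low counts that left 14654 genes for testing. The samples are livers of wild-type (WT) mice (5 samples), which carried loxP-flanked Rbfox2 alleles (Rbfox2 LoxP/LoxP) without Cre (Alb_cre-), and of Rbfox2 knockout (Rbfox2 KO) mice (3 samples), which carried the same alleles with a Cre driven by the albumin promoter (Alb_cre+). Rbfox2 encodes a splicing regulator, and Cre made under the albumin promoter deletes it in hepatocytes while the other liver cells keep it. All the mice drank water with 30% (w/v) fructose for 22 weeks, from an age of 8 weeks, and were male as far as the methods state. All were fasted when the livers were taken, for a length of time that is not given in the sources used here. The comparison asks which liver genes differ with the loss of Rbfox2 on a lipogenic diet, and each sample is a poly(A) RNA-seq library of liver.

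PPARα pairs with the retinoid X receptor and binds DNA at direct repeats of the letters AGGTCA. During fasting, fatty acids released from fat tissue reach the liver and activate the receptor, which raises genes for fatty acid uptake, mitochondrial and peroxisomal oxidation and the making of ketone bodies. Because the same genes move with the time since the last meal, a difference in feeding state between mice would move them whatever the genotype, so the direction of each gene was read in each library.

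The libraries held 24829693 to 37823155 counted reads. The share of reads on major urinary protein (Mup) genes ran from 6.71% in Rbfox2 KO 1 to 35.5% in WT 3, and the trimmed mean of M-values (TMM) factors ran from 0.821 in WT 3 to 1.29 in Rbfox2 KO 1. Levels below are counts scaled by library total and TMM factor (CPM, as edgeR gives it). Values written with ± are means and SDs over the 5 WT or the 3 Rbfox2 KO libraries unless given as an SE. Rbfox2 itself was at 18.9 ± 3.39 CPM in WT livers, against 9.28 ± 2.84 CPM in the knockout, with no overlap between the groups. Its log2 fold change was -1.03 ± 0.21 (SE), with an adjusted p of 0.328 by edgeR's quasi-likelihood test. All 8 hepatocyte markers listed were above the 3-count floor in every library. In bulk liver RNA, fewer cells of a type and less RNA per cell cannot be told apart. No label says in words that the samples of a group came from separate mice, so the p-values measure the spread between these samples.

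The stretches just upstream of the start sites of Ehhadh, Fgf21 and Cpt1a are shown because Ehhadh and Fgf21 had the smallest p-values of the 8 genes and because only Fgf21 and Cpt1a held one of the motifs searched. Each is the 250 bases before the RefSeq start site in GRCm38.p6, written 5′ to 3′ on the strand of the gene. They lie at chr16:21787835-21788084 on the minus strand for Ehhadh, at chr7:45615491-45615740 on the minus strand for Fgf21 and at chr19:3323051-3323300 on the plus strand for Cpt1a. Capitals mark TATAAA in Fgf21 and TGACCT, which is AGGTCA read on the other strand, in Cpt1a.
Ehhadh: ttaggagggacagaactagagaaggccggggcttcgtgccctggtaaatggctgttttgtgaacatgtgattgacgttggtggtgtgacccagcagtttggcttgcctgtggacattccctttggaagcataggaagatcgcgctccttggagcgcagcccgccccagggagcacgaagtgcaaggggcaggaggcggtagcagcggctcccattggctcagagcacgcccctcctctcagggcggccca
Fgf21: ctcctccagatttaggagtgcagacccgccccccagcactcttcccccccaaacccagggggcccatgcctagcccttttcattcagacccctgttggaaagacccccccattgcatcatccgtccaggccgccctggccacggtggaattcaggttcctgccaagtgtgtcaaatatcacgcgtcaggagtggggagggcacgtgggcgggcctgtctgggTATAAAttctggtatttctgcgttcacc
Cpt1a: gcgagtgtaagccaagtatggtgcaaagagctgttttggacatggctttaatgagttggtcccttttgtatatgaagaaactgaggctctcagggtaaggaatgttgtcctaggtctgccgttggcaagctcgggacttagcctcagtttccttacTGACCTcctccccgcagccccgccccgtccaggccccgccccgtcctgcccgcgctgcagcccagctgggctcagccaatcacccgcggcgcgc

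Of the 8 genes, 6 were matched in the promoter table (Ppara, Fgf21, Cpt1a, Acot1, Pdk4 and Ehhadh). On both strands of those 6 windows, the DR1 repeat (AGGTCA, any base, AGGTCA) was found in 0, AGGTCA, which is also a part of that repeat, in 1 and TATAAA in 1. Over all 32851 windows of the same length, the shares were 0.0335%, 14.0% and 12.4%. TATAAA lay 28 to 23 bases before the start site of Fgf21, and TGACCT lay 94 to 89 bases before that of Cpt1a. A match is a run of letters and not a measured binding site.

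Of the 8 genes, 0 passed the test between Rbfox2 KO and WT at an adjusted p under 0.05 by edgeR's quasi-likelihood test, which called 0 of 14654 genes (0.0%). At an unadjusted p under 0.05, 2 of the 8 passed, Ehhadh and Fgf21, both higher in Rbfox2 KO, against 4.74% of all tested genes. DESeq2, run as an alternative, called 59 genes (0.403%), and Ehhadh was 1 of them. The fold change was positive in 6 of the 8 genes, against 50.2% of all tested genes, and Ppara and Vnn1 were the 2 with a negative one. The adjusted p was 0.483 for Ehhadh, 0.894 for Fgf21 and 0.99997 for each of the other 6, and in what follows a gene given without an adjusted p had that same value of 0.99997. The median log2 fold change of the 8 genes was 0.23, against 0.000953 over all tested genes. The 8 genes were chosen with earlier results of these data known, so these shares describe them and are not a test.

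**Figure D1:**
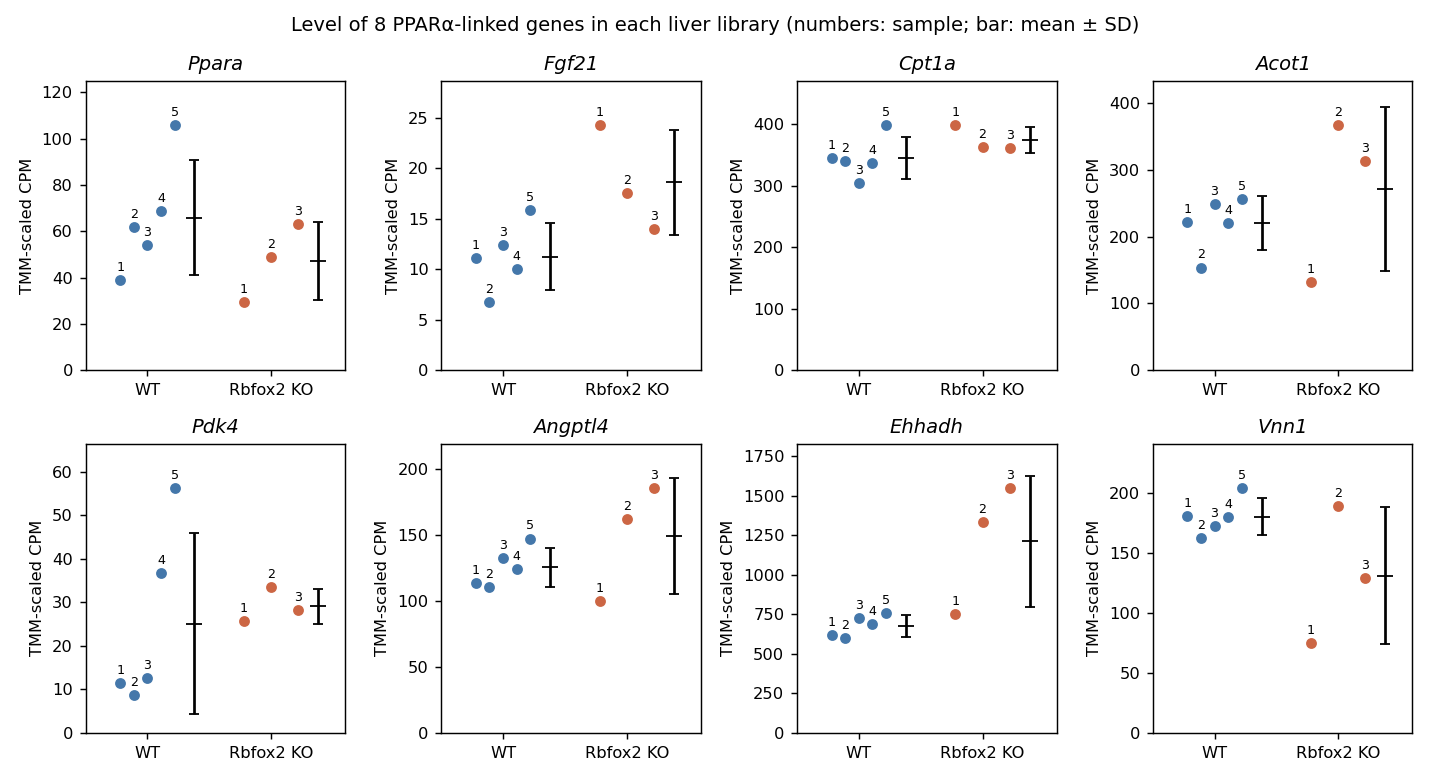
TMM-scaled CPM (y axis) of each of the 8 genes in the 5 WT and 3 Rbfox2 KO libraries, 1 point a library, with the group mean and SD. Ehhadh at 1335 and 1549 CPM in Rbfox2 KO 2 and 3 stands above all 5 WT libraries, while Pdk4 covers 8.69 to 56.3 CPM within WT alone.

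Ppara (ENSMUSG00000022383, GRCm38 chr15:85734983-85802819, plus strand), the receptor gene, was at 39.1, 61.8, 54.2, 68.6 and 106 CPM in WT 1 to 5 and at 29.6, 48.7 and 63.0 CPM in Rbfox2 KO 1 to 3. WT 5 was high and Rbfox2 KO 1 low, while Rbfox2 KO 2 and 3 lay inside the WT range, so the groups overlapped. The means were 65.9 ± 24.9 CPM in WT and 47.1 ± 16.7 CPM in Rbfox2 KO. Rbfox2 KO differed from WT by a log2 fold change of -0.49 ± 0.33 (SE), which is within the spread between samples. It was -0.25 without WT 5, -0.25 without Rbfox2 KO 1 and -0.75 without Rbfox2 KO 3. The RNA level of the receptor gene is not a measure of receptor activity, which depends on its ligands.

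Fgf21 (ENSMUSG00000030827, chr7:45613886-45615490, minus strand) encodes a hormone that the liver secretes in fasting and also on sugar-rich diets. It was at 11.1, 6.75, 12.4, 10.03 and 15.8 CPM in WT 1 to 5 and at 24.3, 17.6 and 14.0 CPM in Rbfox2 KO 1 to 3. Rbfox2 KO 1 and 2 lay above all WT libraries, and Rbfox2 KO 3 lay below WT 5 and above the other 4, so the groups overlapped at 1 pair of libraries. The means were 11.2 ± 3.31 CPM and 18.6 ± 5.20 CPM, and the log2 fold change was 0.73 ± 0.25 (SE; adjusted p = 0.894). Without Rbfox2 KO 1 it was 0.49, and it was no longer at an unadjusted p under 0.05.

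Rbfox2 KO 1, the library highest in Fgf21, also held pancreatic RNA markers. The pancreas makes much Fgf21, and the summed CPM of 13 pancreatic acinar genes was 486 in Rbfox2 KO 1, against 4.78 to 17.5 in WT and 5.94 and 4.87 in Rbfox2 KO 2 and 3. All 13 genes had at least 3 counts in Rbfox2 KO 1, and 1 of 13 in Rbfox2 KO 2 and in Rbfox2 KO 3. The part of this RNA in the Fgf21 value of Rbfox2 KO 1 was not tested. In Rbfox2 KO 2, where the sum was at the WT level, Fgf21 was above every WT library with TMM and with DESeq2 size factors, but not on library totals with or without Mup genes.

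Angptl4 (ENSMUSG00000002289, chr17:33773750-33781830, minus strand) encodes a secreted inhibitor of lipoprotein lipase, which keeps circulating triglycerides from uptake in fat tissue during fasting. Its levels were 114, 110, 132, 124 and 147 CPM in WT 1 to 5 and 100, 162 and 186 CPM in Rbfox2 KO 1 to 3. Rbfox2 KO 1 was below all WT libraries, and Rbfox2 KO 2 and 3 were above all of them. Over all libraries, the log2 fold change was 0.25 ± 0.18 (SE). Without Rbfox2 KO 1 it was 0.46, past an unadjusted p of 0.05, and without Rbfox2 KO 3 it was 0.06. White adipocytes also express Angptl4. The 7 genes listed as their markers summed to 12.2 to 27.6 CPM in WT and to 38.8, 7.43 and 9.51 CPM in Rbfox2 KO 1 to 3. Most of each sum came from Cidea and Fabp4, so the sums rest on those genes and are not a measure of white adipocyte RNA. Cidea was at 3.49 to 19.3 CPM in WT and at 2.16, 1.53 and 0.0839 CPM in Rbfox2 KO 1 to 3. Fabp4 was at 4.85 to 8.99 CPM in WT and at 33.4, 5.78 and 7.75 CPM in Rbfox2 KO 1 to 3. Adipoq, a defining marker, was at 0.973, 0 and 0.475 CPM in Rbfox2 KO 1 to 3, against at most 0.414 CPM in WT. Plin1, Lep and Retn were highest in Rbfox2 KO 1, at 0.596, 0.314 and 0.376 CPM, and Cfd in WT 2, at 1.13 CPM. The part of adipocyte RNA in the Angptl4 values was not tested.

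Cpt1a (ENSMUSG00000024900, chr19:3322334-3385733, plus strand) encodes the liver carnitine palmitoyltransferase, which controls the entry of long-chain fatty acids into mitochondria. Its levels of 345, 340, 305, 337 and 399 CPM in WT 1 to 5 and 399, 363 and 361 CPM in Rbfox2 KO 1 to 3 were the closest to each other of the 8 genes. Rbfox2 KO 1 was within 1 CPM of WT 5, the highest WT library. The log2 fold change was 0.12 ± 0.11 (SE), with means of 345 ± 33.6 CPM and 374 ± 21.3 CPM.

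Pdk4 (ENSMUSG00000019577, chr6:5483351-5496309, minus strand) encodes a kinase that switches off pyruvate dehydrogenase and so spares glucose in fasting. It spread most within WT, at 11.4, 8.69, 12.6, 36.7 and 56.3 CPM in WT 1 to 5, against 25.6, 33.5 and 28.2 CPM in Rbfox2 KO 1 to 3. WT 1 to 3 lay below the 3 Rbfox2 KO libraries and WT 4 and 5 above them. The log2 fold change of 0.21 ± 0.65 (SE) was within the spread between samples. It was -0.01 without WT 2, 0.75 without WT 5 and 0.58 by limma-voom.

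Skeletal muscle also expresses Pdk4, and muscle RNA differed between these libraries. The 10 muscle markers summed to 47.8, 17.9, 8.43, 256 and 344 CPM in WT 1 to 5, so WT 4 and 5 were highest in both the markers and Pdk4. In Rbfox2 KO 1 to 3 the sums were 217, 1.38 and 6.54 CPM. All 10 markers had at least 3 counts in every WT library and in Rbfox2 KO 1, against 5 of 10 in Rbfox2 KO 2 and 9 of 10 in Rbfox2 KO 3. The part of muscle RNA in the Pdk4 values of WT 4, WT 5 and Rbfox2 KO 1 was not tested. Rbfox2 KO 2 and 3 had muscle sums below every WT library, and Pdk4 above WT 1 to 3.

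Ehhadh (ENSMUSG00000022853, chr16:21761287-21787807, minus strand) encodes the bifunctional enzyme of peroxisomal beta-oxidation and had the smallest p-value of the 8 genes. It was at 616, 598, 724, 687 and 756 CPM in WT 1 to 5 and at 749, 1335 and 1549 CPM in Rbfox2 KO 1 to 3. Rbfox2 KO 2 and 3 were far above the WT libraries, while Rbfox2 KO 1 fell between WT 3 and WT 5. The means were 676 ± 67.9 CPM and 1211 ± 414 CPM. Its log2 fold change was 0.84 ± 0.20 (SE; adjusted p = 0.483), at rank 59 of all tested genes by p-value. The DESeq2 Wald test gave the same fold change, 0.84, and called it, with an adjusted p of 0.0205. Without Rbfox2 KO 1 the log2 fold change was 1.09, with an adjusted p of 0.140 by edgeR. When libraries were scaled by their totals alone, all 3 Rbfox2 KO libraries were above all 5 WT libraries. That scaling placed 8421 of all 14654 tested genes above the WT range in Rbfox2 KO 1, so this placement depends on the scaling.

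Acot1 (ENSMUSG00000072949, chr12:84009490-84018371, plus strand) encodes a cytosolic thioesterase that releases fatty acids from coenzyme A. Its levels were 221, 154, 248, 220 and 256 CPM in WT 1 to 5 and 132, 367 and 314 CPM in Rbfox2 KO 1 to 3. Rbfox2 KO 1 was below all WT libraries, and Rbfox2 KO 2 and 3 were above all of them, as for Angptl4. Over all libraries, Acot1 had a log2 fold change of 0.30 ± 0.30 (SE). It was 0.62, past an unadjusted p of 0.05, without Rbfox2 KO 1 and 0.02 without Rbfox2 KO 2. Of the 100-base windows of the longest Acot1 transcript, 12.5% also occurred in other genes (Acot2 and Acot5). The counts of Acot1 are thus less certain than those of the other 7 members, which shared no such window.

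Vnn1 (ENSMUSG00000037440, chr10:23894688-23905343, plus strand) encodes a pantetheinase, which makes cysteamine and the coenzyme A precursor pantothenate. It was at 180, 163, 172, 180 and 204 CPM in WT 1 to 5, the narrowest WT spread of the 8 genes relative to the mean, and at 74.7, 189 and 129 CPM in Rbfox2 KO 1 to 3. Rbfox2 KO 1 and 3 lay below every WT library, and Rbfox2 KO 2 lay among them. The means were 180 ± 15.3 CPM and 131 ± 57.1 CPM, and the log2 fold change was -0.46 ± 0.24 (SE). Limma-voom, unlike edgeR, put it past an unadjusted p of 0.05. The log2 fold change was -0.82 without Rbfox2 KO 2 and -0.19 without Rbfox2 KO 1.

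**Figure D2:**
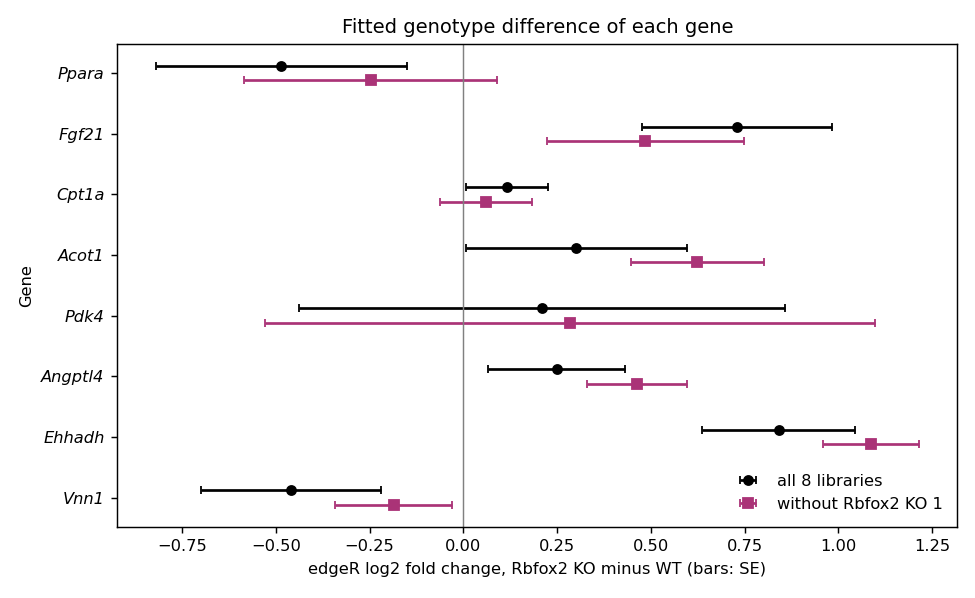
Log2 fold change, Rbfox2 KO over WT, of each of the 8 genes (x axis) with its SE, over all 8 libraries and without Rbfox2 KO 1. Ehhadh moves from 0.84 to 1.09, Acot1 from 0.30 to 0.62, and Fgf21 from 0.73 to 0.49 when that library is left out.

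The 3 Rbfox2 KO libraries differed from one another in which of the 8 genes stood outside the WT range. In Rbfox2 KO 1, Fgf21 and Cpt1a were above it, Ppara, Acot1, Angptl4 and Vnn1 were below it, and Pdk4 and Ehhadh were within. Of all tested genes, 20.8% were above the WT range in that library and 19.9% below. In Rbfox2 KO 2, 4 of 8 were above the range (Fgf21, Acot1, Angptl4 and Ehhadh) and 0 below, against 13.6% and 14.5% of all tested genes. In Rbfox2 KO 3, 3 of 8 were above (Acot1, Angptl4 and Ehhadh) and Vnn1 alone was below, against 17.7% and 16.2%. Acot1, Angptl4 and Ehhadh were thus high in Rbfox2 KO 2 and 3 and not in Rbfox2 KO 1 with TMM, Fgf21 was high in Rbfox2 KO 1 and 2, and Vnn1 was low in Rbfox2 KO 1 and 3. On library totals alone, 3, 2 and 3 of the 8 genes were above the WT range in Rbfox2 KO 1, 2 and 3, and 2, 0 and 1 were below. Of all 14654 tested genes, 8421, 1058 and 1067 were above on that scaling, and 491, 1775 and 2641 were below. With TMM, in 0 of the 8 genes were all 3 Rbfox2 KO libraries on 1 side of the WT range, against 3.71% of all tested genes.

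**Figure D3:**
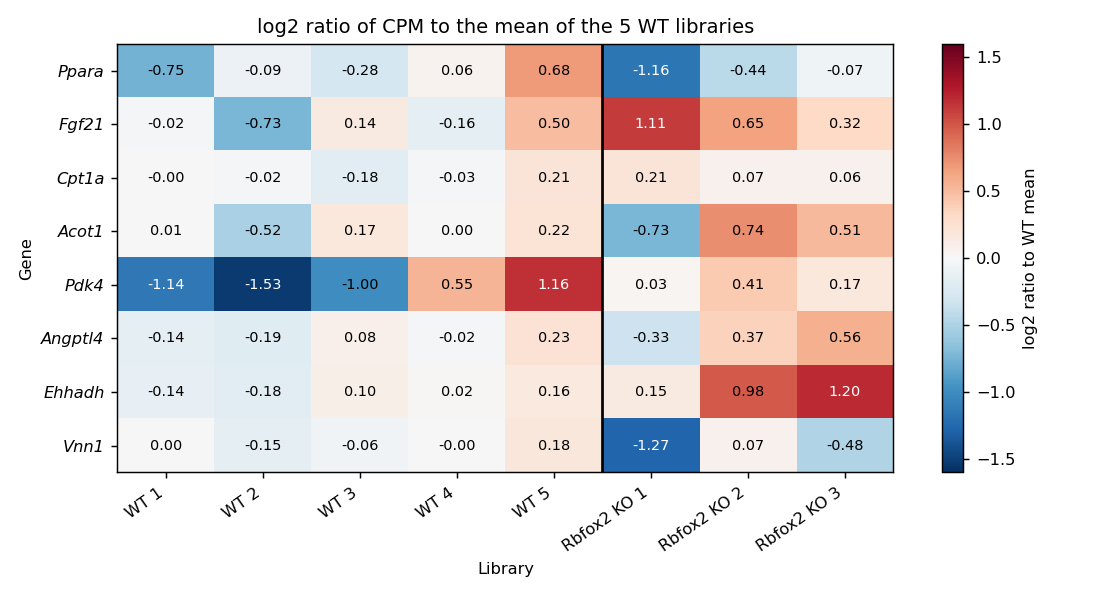
Log2 ratio of each gene (rows) in each library (columns) to the WT mean of its CPM, as a colour scale. In Rbfox2 KO 1, Ppara at -1.16 and Vnn1 at -1.27 sit beside Fgf21 at 1.11, whereas in Rbfox2 KO 3 Ehhadh is at 1.20 and Vnn1 at -0.48.

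The WT libraries also differed together. WT 5 had the highest WT level of all 8 genes, against 27.4% of all tested genes, and WT 2 had the lowest of 6 of the 8, against 12.3%. WT 5 was also the highest for all 8 under each of the other 3 library scalings, while WT 2 was the lowest for 4 to 6 of them. The coefficient of variation within WT was 82.6% for Pdk4, 37.7% for Ppara, 29.5% for Fgf21 and 18.3% for Acot1, and between 8.51% and 11.9% for Angptl4, Ehhadh, Cpt1a and Vnn1. The highest WT level of Pdk4 was 6.47 times the lowest, which is wider than the difference between the group means of any of the 8 genes.

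Per length of merged exons, on the TPM scale, Ehhadh was the most abundant of the 8 in WT, at 361 ± 79.5 TPM. That scale sums to the same total in each library. The lowest WT library of Ehhadh was above the highest of the next gene. Below it came Vnn1 at 119 ± 28.7 TPM, Acot1 at 89.2 ± 24.3 TPM, Cpt1a at 72.6 ± 19.0 TPM and Angptl4 at 56.6 ± 14.3 TPM. Ppara at 28.3 ± 15.4 TPM, Fgf21 at 19.0 ± 8.09 TPM and Pdk4 at 12.2 ± 11.9 TPM were the least abundant. Apart from Ehhadh, each neighbour in this order overlapped the next in its WT range. Merged exons were longer than the longest transcript for Cpt1a (7642 against 4317 bases) and Acot1 (3919 against 2613). For Vnn1 both were 2416 bases, so the order of these genes rests on the length used. On the TPM scale, which carries no TMM factor, Ehhadh was at 688 ± 111 TPM in Rbfox2 KO, and the groups did not overlap. The share of all genes without overlap was not counted on this scale. With TMM, Rbfox2 KO 1 was within the WT range of Ehhadh.

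Other known PPARα targets give the context for these 8 genes. Of 51 other targets tested, 26 had a positive and 25 a negative fold change, and their median was 0.01 on the log2 scale. Of the 51, 0 were called at an adjusted p under 0.05 by edgeR. At an unadjusted p under 0.05, 1 was higher, against 2.41% of all tested genes, and 0 were lower, against 2.33%. That gene was Cyp4a31, a fatty acid omega-hydroxylase, at 44.1, 47.8, 49.1, 68.8 and 43.0 CPM in WT 1 to 5 and 49.8, 132 and 95.6 CPM in Rbfox2 KO 1 to 3, with a log2 fold change of 0.87 ± 0.28 (SE; adjusted p = 0.882). Rbfox2 KO 2 and 3 were above all WT libraries in Cyp4a31, and Rbfox2 KO 1 was not. Of the 100-base windows of Cyp4a31, 8.22% occur in related genes, so part of its reads could belong to them.

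With TMM, the other targets stood mostly below the WT range in Rbfox2 KO 1 and mostly above it in Rbfox2 KO 2. In Rbfox2 KO 1, 1 of the 51 was above the WT range and 34 below, against 20.8% and 19.9% of all tested genes. In Rbfox2 KO 2, 28 were above and 1 below, against 13.6% and 14.5%. In Rbfox2 KO 3, 11 were above and 18 below, against 17.7% and 16.2%. On library totals alone, which placed 8421 of all 14654 tested genes above the WT range in Rbfox2 KO 1, the counts in that library were 16 above and 9 below, so its direction depends on the scaling. With totals taken without Mup genes they were 3 above and 24 below. Without Rbfox2 KO 1, 9 of the 51 targets were higher and 1 lower at an unadjusted p under 0.05. Of all 14867 genes tested in that setting, 239 were higher and 331 lower, 3.83% for both directions together. Without Rbfox2 KO 2, 0 were higher and 5 lower (median -0.14 on the log2 scale), against 571 higher and 401 lower of 15058 tested genes. Without Rbfox2 KO 3, 2 were higher and 0 lower, against 488 higher and 384 lower of 14950 tested genes.

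Cyp4a14, another omega-hydroxylase, named whatever its p-value, was at 3285 ± 240 CPM in WT and at 1929, 4824 and 5442 CPM in Rbfox2 KO 1 to 3. As in Cyp4a31, Rbfox2 KO 2 and 3 were above Rbfox2 KO 1.

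**Figure D4:**
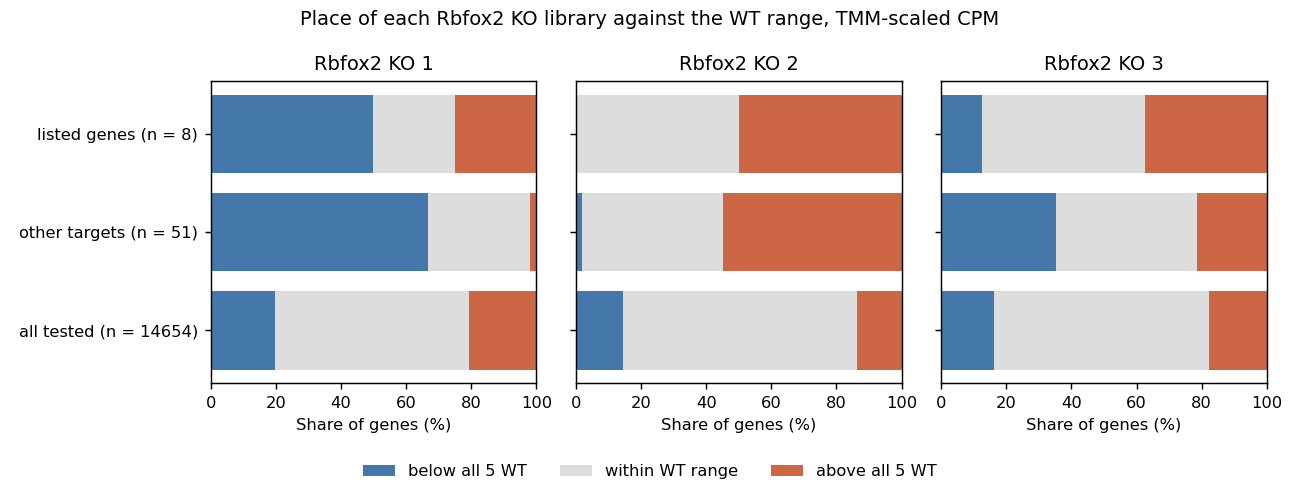
Share of genes in percent (x axis) above, within and below the range of the 5 WT libraries in each Rbfox2 KO library, for the 8 genes, the 51 other PPARα targets and all tested genes. The other targets were below the range in 34 of 51 cases in Rbfox2 KO 1 and above it in 28 of 51 in Rbfox2 KO 2.

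Genes that report the feeding state were read in the same libraries. Of 19 further genes known to be induced by fasting, 14 had a positive fold change, against 50.2% of all tested genes, 1 was higher at an unadjusted p under 0.05, against 2.41%, and 0 were called after adjustment by edgeR. Relative to the WT range, 7 were above and 1 below in Rbfox2 KO 1, 0 above and 2 below in Rbfox2 KO 2, and 7 above and 0 below in Rbfox2 KO 3. Of all tested genes, 20.8%, 13.6% and 17.7% were above in those libraries, and 19.9%, 14.5% and 16.2% below. The gene at an unadjusted p under 0.05 was Asns, the asparagine synthetase gene, at 1.14 ± 0.689 CPM in WT and 2.87 ± 2.22 CPM in Rbfox2 KO with a log2 fold change of 1.33 ± 0.55 (SE). Asns was above the WT range of 0.549 to 2.25 CPM in Rbfox2 KO 1 alone, at 5.40 CPM, and was at 1.22 and 1.99 CPM in Rbfox2 KO 2 and 3. Rbfox2 KO 1 is also the library with 486 CPM of pancreatic acinar markers, whose part in the Asns value was not tested. Pck1, the gluconeogenic carboxykinase, was at 1838 ± 330 and 2118 ± 320 CPM, and Igfbp1, a secreted binding protein that insulin represses, ran from 14.2 to 42.05 CPM in WT and was at 53.7, 17.6 and 32.5 CPM in Rbfox2 KO 1 to 3.

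Of 17 genes known to be high in the fed state, 6 had a positive and 11 a negative fold change, against 50.2% positive over all tested genes. At an unadjusted p under 0.05, 2 were lower, against 2.33%, and 0 were called after adjustment by edgeR. On library totals alone, 0 of the 17 were lower at an unadjusted p under 0.05. Relative to the WT range, 4 were above and 4 below in Rbfox2 KO 1, 2 above and 5 below in Rbfox2 KO 2, and 4 above and 6 below in Rbfox2 KO 3. The shares of all tested genes in those libraries were 20.8%, 13.6% and 17.7% above and 19.9%, 14.5% and 16.2% below. Pklr, the liver pyruvate kinase, was at 50.4 ± 4.69 CPM in WT and 38.4 ± 3.29 CPM in Rbfox2 KO, with a log2 fold change of -0.39 ± 0.10 (SE; adjusted p = 0.663). Srebf1, the regulator of lipid synthesis that insulin induces, was at 38.5 ± 6.73 and 27.2 ± 3.32 CPM, with a log2 fold change of -0.50 ± 0.15 (SE; adjusted p = 0.809). In both genes the groups did not overlap, which held in the lower direction for 1.82% of all tested genes. Pnpla3 was close to the 3-count floor in both groups.

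**Figure D5:**
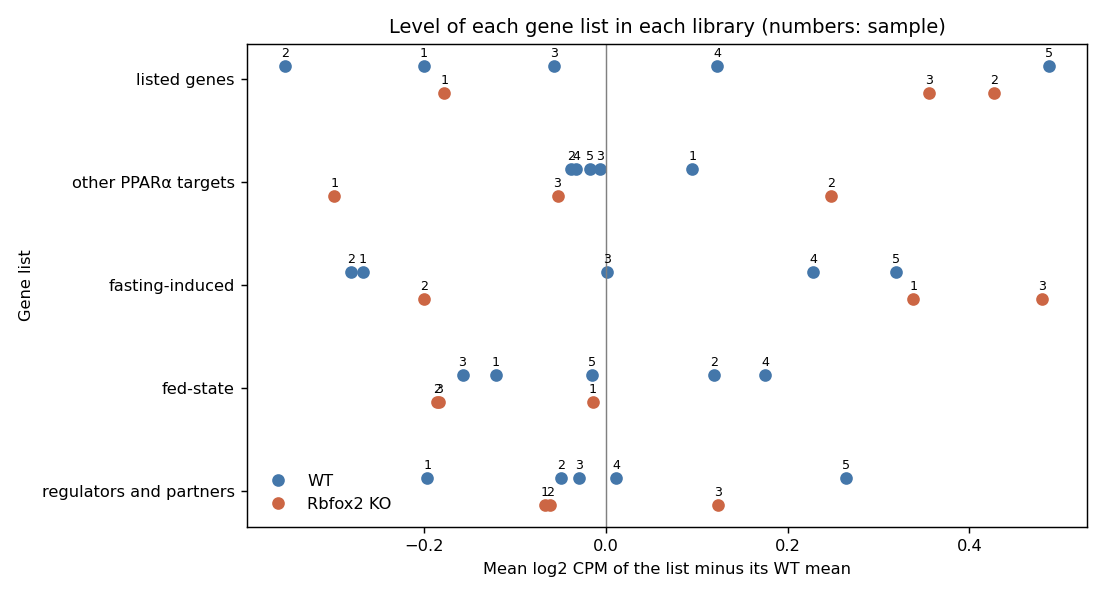
Mean log2 CPM of each gene list minus its WT mean (x axis), 1 point a library. The lists (y axis) are the 8 genes, the other PPARα targets, the fasting-induced genes, the fed-state genes, and the regulators and partners. Before subtraction, the other targets were at 7.75, 8.30 and 7.999 in Rbfox2 KO 1 to 3, against 8.01 to 8.15 in WT. The fasting-induced genes, also before subtraction, were at 5.51, 4.97 and 5.65, against 4.89 to 5.49.

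Set side by side, the feeding-state lists and the PPARα targets did not place the 3 Rbfox2 KO libraries in 1 order. The mean log2 CPM of the fasting-induced genes was above the WT range in Rbfox2 KO 3, just above it in Rbfox2 KO 1 and inside it in Rbfox2 KO 2, where 4 of the 8 genes were above the WT range and 0 below. The mean of the other targets was below the WT range in Rbfox2 KO 1, above it in Rbfox2 KO 2 and just under its lower end in Rbfox2 KO 3. The mean of the fed-state genes was inside the WT range of 5.91 to 6.24 in Rbfox2 KO 1, at 6.05, and under it in Rbfox2 KO 2 and 3, at 5.88 in both. The mean of the 8 genes was inside the WT range of 6.36 to 7.20 in all 3, at 6.54, 7.14 and 7.07. The part of feeding state in the values of the 8 genes was not tested, since no label gives the length of the fast or the time of the last meal for a mouse.

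Of 20 regulators and partners of the receptor, 11 had a positive and 9 a negative fold change, with 0 at an unadjusted p under 0.05 and 0 after adjustment by edgeR. Rxra, the retinoid X receptor that PPARα pairs with, was at 274 ± 23.9 CPM in WT and 257 ± 25.1 CPM in Rbfox2 KO. Ppargc1a, a coactivator induced by fasting, was at 6.23 CPM in WT and 8.02 CPM in Rbfox2 KO.

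Paralogs and working partners of the 8 genes were read in the same way, and 24 of 25 passed the filter on low counts, Cpt1b being the exception. Their median log2 fold change was -0.02, and 0 passed the adjusted threshold by edgeR. At an unadjusted p under 0.05, 1 was higher and 1 lower, against 2.41% and 2.33% of all tested genes. Among genes of FGF signalling, Fgfr4, the main FGF receptor of hepatocytes, known for the control of bile acid synthesis, was at 16.9 ± 1.21 CPM in WT and 22.8 ± 2.33 CPM in Rbfox2 KO. Its log2 fold change was 0.44 ± 0.10 (SE; adjusted p = 0.415), the groups did not overlap, and DESeq2 called it with an adjusted p of 0.0471. The groups did not overlap in the higher direction in 1.89% of all tested genes. Klb, which encodes the coreceptor that Fgf21 needs, was at 16.8 CPM in both groups. For the kinase Pdk4, the substrate subunit gene Pdha1 of pyruvate dehydrogenase was at 113 ± 5.88 CPM and 93.2 ± 9.74 CPM. Its log2 fold change was -0.28 ± 0.10 (SE; adjusted p = 0.889), and the groups did not overlap. In the lower direction, that held for 1.82% of all tested genes.

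Acot3 and Acot4, near relatives of Acot1, had the same placement as Acot1, below all WT libraries in Rbfox2 KO 1 and above them in Rbfox2 KO 2 and 3. Acot3 was at 28.2, 111 and 107 CPM in Rbfox2 KO 1 to 3, against 61.2 to 86.3 CPM in WT. Acot4 was at 29.8, 71.9 and 67.8 CPM, against 44.5 to 64.1 CPM in WT. Acot2, its mitochondrial relative, was at 98.0 ± 9.44 CPM in WT and at 93.2, 227 and 96.8 CPM in Rbfox2 KO 1 to 3, so Rbfox2 KO 2 alone was high. Of the 100-base windows, 16.6% of Acot3, 8.85% of Acot4 and 17.1% of Acot2 also occurred in other genes, Acot1 among them. Part of their reads could thus belong to those genes, and its share in the like placement was not tested. The kinases Pdk1 and Pdk2 were at 51.0 and 44.2 CPM in WT and at 42.6 and 41.1 CPM in Rbfox2 KO, and Pdk3 was at 0.417 and 0.455 CPM. Cpt2, which acts after Cpt1a inside the mitochondrion, was at 169 and 175 CPM. Angptl8, a relative of Angptl4, was at 15.0 CPM in WT and at 14.0 CPM in Rbfox2 KO, and the second pantetheinase gene Vnn3 was at 70.5 and 64.9 CPM. None of these paralogs had an unadjusted p under 0.05.

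Across the 8 libraries, 0 of the 7 relations between the level of Ppara and that of a target passed the exact permutation test. The highest Pearson r of log2 CPM was with Vnn1, at 0.65 (exact permutation p = 0.107, two-sided; adjusted over the 7 relations, 0.552), with a Spearman rho of 0.33 (exact permutation p = 0.428). Without WT 5 and Rbfox2 KO 1, the 2 libraries farthest from the median of Ppara, r was -0.45, so the relation rests on those libraries. For Angptl4, r was 0.50 (exact permutation p = 0.205) and 0.17 without those 2 libraries. For Ehhadh r was 0.06, for Cpt1a -0.00256 and for Fgf21 -0.35. The smallest adjusted value of the 7 relations was 0.552 for r and 0.701 for rho.

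Among the 8 genes, 22 of the 28 pairs had a positive r over the 8 libraries, with a median of 0.40, given as a description since the libraries share their scaling and hold 2 genotypes. Acot1, Angptl4 and Ehhadh were closest to one another, with r of 0.90 for Acot1 and Angptl4, 0.85 for Angptl4 and Ehhadh and 0.72 for Acot1 and Ehhadh. Fgf21 and Vnn1 were the farthest apart, at -0.52. The 3 tested genes outside the list whose log2 CPM was most like the mean of the 8 standardized genes were Zfyve27, Sidt2 and Nacc2. Each had an r of 0.95 over the 8 libraries, and their Spearman rho was 0.88, 0.81 and 0.74. They were picked as the highest r of all tested genes over only 8 libraries, so they are a description only.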

How the data were processed

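Liver poly(A) RNA was sequenced in 5 WT and 3 Rbfox2 KO samples from mice on a fructose diet. The authors deposited whole-number read counts per gene. Per the labels and the study's methods, these were made with CASAVA 1.8.4, TopHat2 2.0.11 and featureCounts on GRCm38. Whether the counting used strand or kept reads with several matches is not given in the sources used here, so reads of near copies and antisense genes may be split or shared.

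Genes passing edgeR's filterByExpr were scaled by TMM and tested with edgeR 4.0.16 (R 4.3.3; robust quasi-likelihood test, genotype as the only term, all 8 libraries), with Benjamini-Hochberg adjustment over all tested genes and a threshold of 0.05. Log2 CPM used a prior count of 2. A count of 3 in a library was taken as the floor, 0.0839 to 0.118 CPM. This covers counting error only. TPM was computed from the counts and merged exon lengths, without TMM. Correlations had exact permutation tests. Alternatives were other scalings, removal of Mup genes, no filter, DESeq2 1.42.0, limma 3.58.1 (voom), the sample number as a block, and each library left out. The fits were tested on simulated data.

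Symbols came from GENCODE M21 (45143 of 46078 genes) and promoters from RefSeq. Samples were grouped by genotype in the labels. The 8 members and all gene lists were chosen with earlier results of these data known. Genes named were the members, Rbfox2, up to 5 genes of each list with the smallest unadjusted p under 0.05, 9 set pathway genes, 13 paralogs and partners, and the 3 genes most like the members' mean. Some of the genes so named are not reported here.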

Additional observations from a re-analysis of the deposited data

Results flagged for a closer look

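In 2 of 21 values examined with Dixon's test in the 5 WT libraries, 1 library stood past the 95% critical value, against 1.05 that chance gives. The mean log2 CPM of the other PPARα targets was 8.15 in WT 1 and 8.01 to 8.05 in the other 4, with a gap of 0.761 of the whole range. The summed CPM of the pancreatic acinar markers was 17.5 in WT 1 and 4.78 to 5.29 in the other 4, with a gap of 0.960 of the whole range. None of the 8 genes was past the critical value in WT.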

How the results depend on the processing

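The count of genes called was 0 by edgeR with all libraries and 0 to 0 with 1 library left out, 6 with no filter on low counts and 59 with DESeq2. Of the 8 genes, 0 were called with all libraries and 0 to 0 with 1 left out, and 1, Ehhadh, with DESeq2. The unadjusted split was 353 higher and 341 lower with TMM and 345 higher and 120 lower on library totals alone, which moved the median of all genes to 0.12. That scaling also took the fed-state median from -0.140 to 0.0172. Of 56 values of single members under the other settings, 55 kept their direction and side of the threshold. Of 64 with 1 library left out, 63 did, and Pdk4 without WT 2 was -0.0101. The cause was not tested. With 1 library left out, the median was 0.12 to 0.37 for the 8 genes, -0.14 to 0.07 for the other targets, 0.01 to 0.25 for the fasting-induced genes, -0.17 to -0.05 for the fed-state genes and -0.07 to 0.05 for the regulators. The single genes ranged from 0.02 to 0.62 for Acot1, 0.06 to 0.46 for Angptl4, 0.06 to 0.17 for Cpt1a, 0.62 to 1.09 for Ehhadh, 0.49 to 0.90 for Fgf21, -0.01 to 0.75 for Pdk4, -0.75 to -0.25 for Ppara and -0.82 to -0.19 for Vnn1.

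Sample numbers shared by the groups did not pair the libraries, with correlations of deviations of 0.163, 0.0484 and 0.170. With the number as a replicate block, 0 genes were called by edgeR, and 739 passed an unadjusted p under 0.05 against 694 without it. Numbers 4 and 5 occur only in WT, so WT 4 and WT 5 did not inform the genotype difference in that fit. Those libraries had the highest WT levels of Pdk4 and Ppara. The log2 fold change was 1.42 for Pdk4 (edgeR adjusted p = 0.262) and -0.18 for Ppara, against 0.21 and -0.49 without the block. Of 24 placements of the 8 genes in the Rbfox2 KO libraries, 14 were outside the WT range with TMM. There were 11, 13 and 10 with library totals, DESeq2 size factors and totals without Mup genes, which were added after the data were seen. Of all 14654 tested genes, 3042 were above and 2910 below the WT range in Rbfox2 KO 1 with TMM. With the other scalings, in the same order, 8421, 2951 and 4714 were above in that library and 491, 3006 and 1617 below.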
